A study of Mus musculus with 8 samples.

Results

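The nuclei described here are hippocampal nuclei chosen by genes of neuroblasts and immature neurons, the cells that lie between a dividing progenitor and a mature granule neuron of the dentate gyrus. A nucleus was a member if it had at least 500 detected genes, at least 1 unique molecular identifier (UMI, a count of 1 captured RNA molecule) of Igfbpl1, at least 2 UMIs of Dcx and Sox11 together, no UMI of Pdgfra and fewer than 6 of Gad1 and Gad2 together. At least 1 of Eomes, Neurod1, Sox4 and Draxin, other genes of this lineage, was found in 75 of the 131 members at 3 months. The same share was not computed in other nuclei. The 6 members at 21 months go in part against the name of neuroblast or immature neuron. That name may not hold for all young members either, as given below. The rule found 137 nuclei among 46752 hippocampal nuclei, and 108519 nuclei with 500 or more genes were measured in the whole series. C57BL/6JN mice aged 3 or 21 months had been sampled by punches of the left hemisphere, at the anterior hippocampus and at the caudate putamen, for single-nucleus RNA sequencing. Each of the 4 groups (region by age) had 2 libraries, and each library pooled nuclei of 1 male and 1 female of the same age, released with EZ lysis buffer, sorted on Hoechst stain and captured with 10x Genomics v3.1 chemistry. All groups carried the same strain background and no treatment is named. The hippocampal libraries held 6555 to 20168 nuclei and 67205436 to 234811422 UMIs. The labels do not say whether libraries of a group differ in more than the animals pooled, so a p-value below measures the spread between these libraries.

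In the adult dentate gyrus, radial glia-like stem cells give rise to intermediate progenitors that express the transcription factor Eomes (Tbr2). Their daughters become neuroblasts that express the microtubule-associated protein doublecortin (Dcx) and the SoxC factors Sox4 and Sox11, migrate a short way, grow a dendrite and a mossy fibre axon, pass through a calretinin (Calb2) stage and then mature into granule neurons that express calbindin (Calb1). The number of such cells in rodents is known to decline with age. Igfbpl1 encodes a secreted protein related to the insulin-like growth factor binding proteins and marks newborn neurons in several brain regions.

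SoxC factors and the proneural factor Neurod1 are part of the programme of newborn neurons, and Neurod1 binds E-boxes of the form CANNTG. RefSeq promoter windows of 250 bases were therefore searched for the E-box CAGCTG, which reads the same on both strands, and for CAGATG and CATCTG. Of 22 genes on the transcription factor, cytoskeleton and migration lists that were called higher in members (below), 14 had a window in the RefSeq table for GRCm38.p6, and 2 of these held CAGCTG, Draxin and Sox4. Over all 32851 windows of that table, which count windows and not genes, the share with CAGCTG was 13.0%. Any of the searched forms was held by 4 of the 14 genes (Draxin, L1cam, Sema3c and Sox4) and by 25.5% of all windows. A match describes the letters only and is not a binding site. The Draxin and Sox4 windows are shown because these genes are among those that set the members apart, with CAGCTG in capitals, 5′ to 3′ on the strand of the gene.
Draxin promoter (GRCm38.p6, chr4:148130699-148130948, minus strand): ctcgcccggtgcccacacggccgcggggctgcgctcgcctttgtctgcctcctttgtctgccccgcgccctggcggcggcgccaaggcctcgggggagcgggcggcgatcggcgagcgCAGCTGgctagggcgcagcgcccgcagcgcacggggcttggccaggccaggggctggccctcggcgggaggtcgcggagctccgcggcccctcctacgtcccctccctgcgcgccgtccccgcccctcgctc
Sox4 promoter (GRCm38.p6, chr13:28953700-28953949, minus strand): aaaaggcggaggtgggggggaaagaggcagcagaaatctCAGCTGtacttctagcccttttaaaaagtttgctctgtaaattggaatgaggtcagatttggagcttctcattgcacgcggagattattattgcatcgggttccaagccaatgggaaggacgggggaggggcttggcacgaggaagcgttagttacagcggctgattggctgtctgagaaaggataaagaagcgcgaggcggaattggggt

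Draxin lies on chromosome 4 (GRCm38, 148098437 to 148130698, minus strand) and Sox4 on chromosome 13 (28948919 to 28953713, minus strand). Both are protein-coding genes in the GENCODE annotation, and each window ends next to the RefSeq start of its gene.

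The values that chose the members were low counts. In the 3-month libraries 19 of 47 and 44 of 84 members had exactly 1 Igfbpl1 UMI, and the highest had 8. Exactly 2 UMIs of Dcx and Sox11 together were found in 17 and 26 of them. Just inside both limits (1 Igfbpl1 UMI, 2 of Dcx and Sox11) were 28 nuclei at 3 months, of which 25 had a UMI of Prox1, the homeodomain factor of dentate granule cells, and 11 one of Sema3c. Just outside, with Igfbpl1 and 1 UMI of Dcx and Sox11, were 71 nuclei, of which 60 had Prox1 and 21 had Sema3c. Nuclei without Igfbpl1 but with at least 4 UMIs of Dcx and Sox11 numbered 454, and 57 of them had Sema3c. The plot of gate gene UMIs shows how close to the limits the 21-month members lay.

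**Figure D1:**
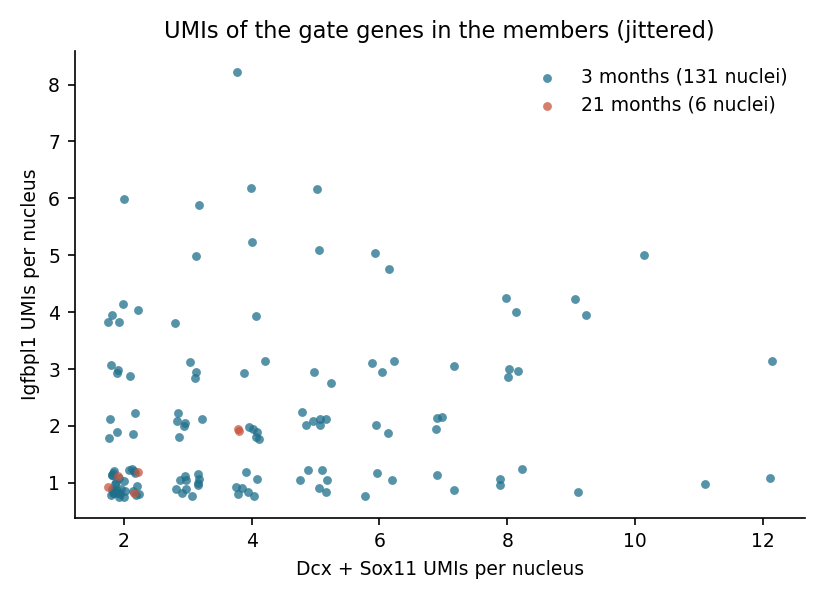
Each point is 1 member nucleus, with its Dcx plus Sox11 UMIs on the horizontal axis and its Igfbpl1 UMIs on the vertical axis, spread slightly at random around whole numbers. The 131 members at 3 months (blue) reached 8 Igfbpl1 UMIs, and none of the 6 members at 21 months (red) had more than 2.

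Nuclei that met the rule were 11.2 times as frequent in the young as in the old hippocampus, and 17.1 times with at least 2 Igfbpl1 UMIs. Of the 6 old nuclei, 4 had exactly 1 Igfbpl1 UMI and 2 of Dcx and Sox11, and none had Eomes, Neurod1, Sox4 or Draxin, so the old rate may not be one of neuroblasts. The 3-month libraries held 47 members of 11030 nuclei (library 1) and 84 of 20168 (library 2). The 21-month libraries held 4 of 8999 (library 1) and 2 of 6555 (library 2). Per 1000 nuclei these were 4.26 (95% Clopper-Pearson interval 3.13 to 5.66), 4.17 (3.32 to 5.15), 0.444 (0.121 to 1.14) and 0.305 (0.0370 to 1.10). The libraries of the ages did not overlap, and neither did their intervals, which cover counting error only. The means were 4.21 ± 0.0679 at 3 months and 0.375 ± 0.0986 at 21 months (SD, n = 2 each), a ratio of 11.2. The exact two-sided permutation test gave p = 0.333, the smallest value that 2 libraries against 2 can give.

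**Figure D2:**
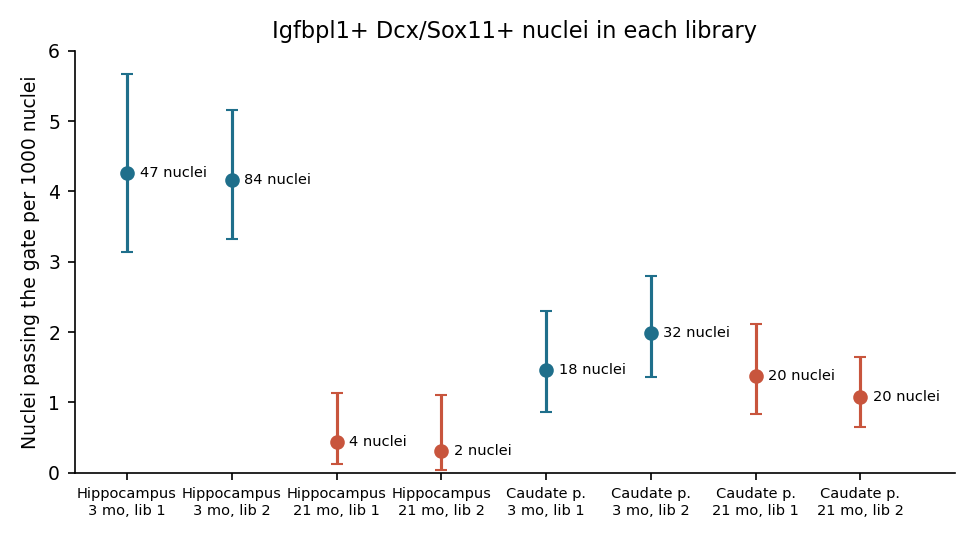
Number of nuclei passing the gate per 1000 nuclei (vertical axis) in each of the 8 libraries, with 95% Clopper-Pearson intervals as bars and the number of gated nuclei beside each point (blue, 3 months; red, 21 months). The young hippocampal libraries (4.26 and 4.17) lie above both old ones (0.444 and 0.305), while the 4 caudate putamen libraries lie between 1.07 and 1.98.

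The numbers were also set beside those of 8 other gates, each drawn from marker UMIs (granule, interneuron, oligodendrocyte precursor, astrocyte, oligodendrocyte, microglial, endothelial and Cajal-Retzius). Median UMIs of microglial-gated nuclei (12697 to 16698) were in each library above those of granule-gated nuclei (11839 to 13057). How many deep nuclei of other types that gate holds was not tested. In edgeR's quasi-likelihood test on numbers of nuclei, members were the 1 gate of 9 (11.1%) with a Benjamini-Hochberg adjusted p under 0.05. Their log2 fold change, 21 minus 3 months, was -3.42 (SE 0.45, adjusted p = 0.00200). It stayed between -3.74 and -3.22 when any 1 of the 4 libraries was left out, but without 3-month library 1 the adjusted p was 0.0624 and without 3-month library 2 it was 0.0631. Granule-gated nuclei, the mature cells of the same lineage, had a log2 fold change of -0.19 and did not pass the test (SE 0.46, adjusted p = 0.927). Cajal-Retzius-gated nuclei, early-born neurons of the hippocampal fissure that express Trp73 and Reln, had a log2 fold change of -1.20 and did not pass the test (SE 0.39, adjusted p = 0.0882).

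The depth of the libraries was set beside these rates. Median UMIs per nucleus were 7963 and 9487 at 3 months and 7910 and 8365 at 21 months, so that the deepest library was a young one and the shallowest an old one. Members themselves were shallower at 3 months (medians 5927 and 7824 UMIs) than at 21 months (14233.5 and 20192.5). After each nucleus was thinned to 3000 UMIs, 22 and 28 nuclei met the rule at 3 months and 0 and 0 at 21 months. Per 1000 nuclei this was 2.29 and 1.55, against 0 of 7930 and 0 of 5716 nuclei, for which the intervals end at 0.465 and 0.645 per 1000. Doublet calling marked 2 and 7 of the young members and none of the old ones. No member barcode was a member in a second library, and libraries shared 0.305% to 0.610% of the smaller library's barcodes.

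Nuclei with only female or only male transcripts gave rates by sex, from 1 animal of each sex in a library. At 3 months the rate per 1000 was 4.64 in females and 3.89 in males of library 1, and 2.72 and 5.68 in library 2. At 21 months it was 0.812 and 0.292 in library 1, and 0.740 and 0 in library 2. The order of the sexes differed between the young libraries, and in each sex both young values lay above both old ones.

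The gate was next checked against genes it did not use. Of the 131 members at 3 months, 117 had a UMI of Prox1, 85 of Sema3c, 34 of Neurod1 and 31 of Draxin. A UMI of at least 1 of Eomes, Neurod1, Sox4 and Draxin was found in 75. This combined share was not computed in other nuclei, and Neurod1 alone was found in 10.0% of granule-gated nuclei at 3 months. Dlx1, Dlx2, Dlx5 and Dlx6, genes of the GABAergic lineage, were found in none of the 131 members, and the antisense RNA Dlx6os1 in 2. The caudate putamen, gated in the same way, gave 90 nuclei. There, 75 of 90 (83.3%, interval 74.0 to 90.4) had a UMI of a Dlx gene or Dlx6os1, against 2 of 137 in the hippocampus (1.46%, 0.177 to 5.17), both through Dlx6os1. At 3 months the same genes were found in 1.88% of granule-gated and 2.16% of oligodendrocyte-gated hippocampal nuclei. The low share was thus not particular to the members. The share among caudate putamen nuclei outside the gate was not computed, so 83.3% does not tell neuroblasts from other nuclei of that region. Prox1 was found in 6 of the 90, Sema3c in 1, and Neurod1 and Eomes in none. In the caudate putamen the rate was 1.46 and 1.98 per 1000 at 3 months and 1.37 and 1.07 at 21 months. No test between regions was made.

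Markers of successive stages were then read in the young members beside mature granule nuclei. At an equal depth of 3000 UMIs, Eomes was found in 7.87% of 127 members (interval 3.84 to 14.0) and in 0.0431% of 2319 granule-gated nuclei (0.00109 to 0.240). It was found in none of 1914 oligodendrocyte-gated nuclei, which should lack it. Neurod1 was found in 9.45% of members (4.98 to 15.9) against 2.20% of granule-gated and 1.57% of oligodendrocyte-gated nuclei. Calb2, the calretinin gene, was found in 7.87% of members (3.84 to 14.0), against 0.474% and 0.366%. Calb1 ran the other way, with 9.45% of members (4.98 to 15.9), 24.6% of granule-gated (22.8 to 26.4) and 7.99% of oligodendrocyte-gated nuclei, so the share in members was near that background. These shares pool the nuclei of 2 libraries. By library Eomes was found in 6.67% and 8.54% of members, Neurod1 in 3 of 45 and 9 of 82, and Calb2 in 8.89% and 7.32%. In library 1 the interval for Neurod1 in members (1.40 to 18.3) overlapped that in granule-gated nuclei (1.46 to 4.62). Mki67 or Top2a, genes of dividing cells, were found in 2.36% of members (0.490 to 6.75), 6.21% of granule-gated and 1.72% of oligodendrocyte-gated nuclei, a share that cannot be read as division. The genes differed: Top2a stood at 9.63 and 3.77 CPM in young members (4 UMIs in 1 nucleus of each library, both with Eomes) against 0 and 0.146 CPM in young granule-gated nuclei, and was too sparse to be tested, while Mki67 was lower in members (below). The library 2 nucleus with Top2a (17243 UMIs) was called a doublet. Hopx, a stem cell and astrocyte gene, reached 2.36% of members, 0.561% of granule-gated and 1.52% of oligodendrocyte-gated nuclei.

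Before thinning, the shares of the 131 members were 9.16% for Eomes, 26.0% for Neurod1, 11.5% for Calb2, 26.7% for Calb1, 6.87% for Mki67 or Top2a and 89.3% for Prox1. Prox1 was found in 55.2% of oligodendrocyte-gated nuclei, so a single Prox1 UMI says little about 1 nucleus. None of the 12 nuclei with Eomes had Calb2, 4 had Mki67 or Top2a, 4 had Calb1 and 5 had Prox1, whereas 117 of all 131 had Prox1. Calb2 and Calb1 met in 5 nuclei, and 101 of the 131 had no UMI of Eomes, Mki67, Top2a or Calb2. At least 2 UMIs of Prox1 and 1 of C1ql2 were found in 18 of the 131. Of all 137 members, 13 met the whole granule gate used below (which also limits Gad1 and Gad2) and were kept out of the granule-gated nuclei, 15 met the microglial and 7 the astrocyte gate, and the part of other cells' RNA in this was not tested.

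**Figure D3:**
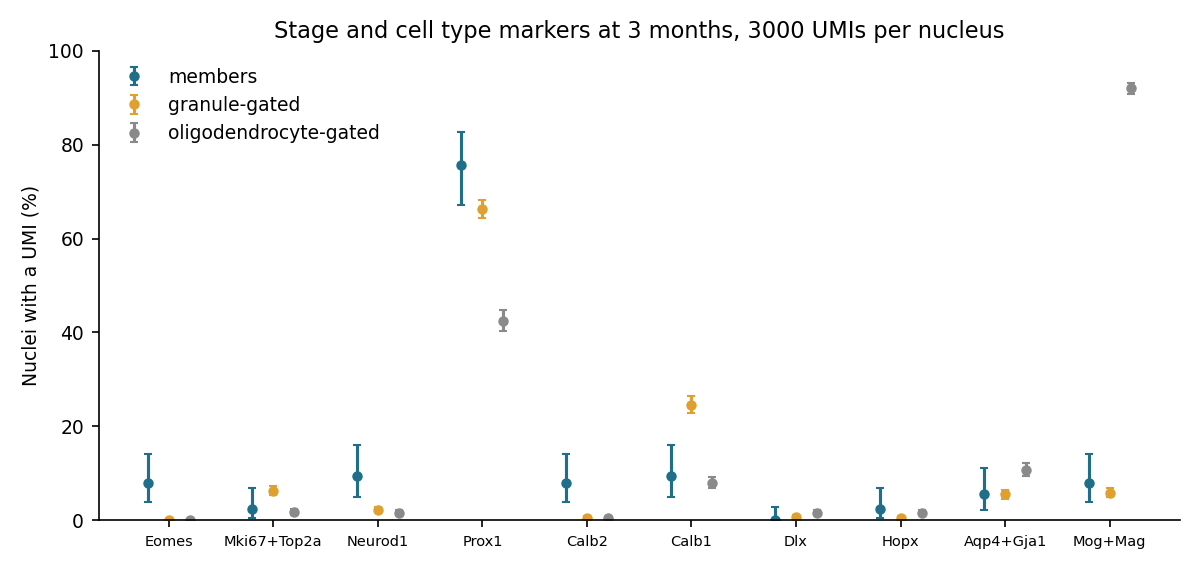
Share of nuclei with at least 1 UMI of each marker at 3 months (vertical axis, percent), each nucleus thinned to 3000 UMIs, for members (blue, 127 nuclei), granule-gated (yellow, 2319) and oligodendrocyte-gated nuclei (grey, 1914), with 95% Clopper-Pearson intervals; Dlx counts Dlx1, Dlx2, Dlx5, Dlx6 and Dlx6os1. The pooled share of members is above that of granule-gated nuclei for Eomes (7.87%), Neurod1 (9.45%) and Calb2 (7.87%), and below it for Calb1 (9.45% against 24.6%).

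The expression of members was compared with that of granule-gated nuclei of the same libraries, the mature neurons of their lineage (at least 2 Prox1 UMIs, at least 1 of C1ql2, fewer than 2 of Gad1 and Gad2). Counts were summed per library and gate and tested with edgeR's quasi-likelihood test with library as a block. Levels are in counts per 1000000 UMIs of the sum (CPM), and differences are log2 fold changes, members minus granule-gated, from the test with all 4 libraries unless 3 months is named. Of 13602 genes tested, 1123 (8.26%) were called at an adjusted p under 0.05, of which 622 (4.57% of those tested) were higher and 501 (3.68%) lower. With the 3-month libraries alone, where 131 of the members lie, 1848 (14.0%) were called; 919 of 13234 (6.94%) were called higher and 929 (7.02%) lower. The calls rested on both young libraries: 338 genes were called without 3-month library 1 and 290 without 3-month library 2. The 21-month member sums rest on 4 and 2 nuclei. Deep nuclei weigh more in a sum: in 3-month library 2, 1 member gave 92479 of the 1060516 UMIs of the member sum. That nucleus held 147 UMIs of Adarb2, a gene high in granule-gated nuclei (below). How far such nuclei set the fold changes was not tested. Genes near 0 in granule-gated nuclei passed the filter on low counts only through the members. Eomes, Kif11, Draxin, St8sia2, Col12a1 and Adamts18 are such genes. So are Dchs1, Vat1l and Hcrtr2, which reached at most 2.78, 3.76 and 3.13 CPM in a granule-gated sum. Once tested they could hardly be called lower, so their adjusted p-values and the counts of higher genes below are descriptions. Called genes were long, with a median gene length of 65984.5 bases for the higher and 109670 for the lower ones against 27980 for all tested; the part of gene length in the calls was not tested. The gate genes themselves had young member levels of 279 and 155 CPM (Igfbpl1), 233 and 174 CPM (Dcx) and 238 and 155 CPM (Sox11), as the gate requires.

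Among progenitor and cell cycle genes, 3 of 8 tested were higher and 1 lower, both with all libraries and at 3 months alone. Eomes stood at 16.8 and 13.2 CPM in the young members and at 0 in the old ones, against 0 and 0.0731 CPM in young granule-gated nuclei. That is 21 UMIs against 2, a ratio of 241 at equal depth (exact counting interval 59.0 to 2122). The interval takes UMIs as independent, but the 21 lie in 12 nuclei, with up to 4 in 1 nucleus. Nuclei called doublets are among the 12, with 2 Eomes UMIs in library 1, and 1 and 2 in library 2. Its call (adjusted p = 2.22e-17) was lost with DESeq2 (adjusted p = 0.328), and it was too sparse to be tested without either young library. Ezh2, the methyltransferase of Polycomb repressive complex 2, stood at 118 and 98.1 CPM in young members against 31.4 and 32.7 CPM in young granule-gated nuclei (log2 fold change 1.27, SE 0.29, adjusted p = 0.000573). Kif11, a mitotic kinesin, was higher from few counts (7.22 and 4.71 against 0.610 and 0.914 CPM, adjusted p = 0.0195), and was too sparse to be tested without either young library. Mki67, the proliferation antigen, was lower (2.41 and 7.54 against 23.2 and 17.7 CPM, log2 fold change -2.00, SE 0.54, adjusted p = 0.00489). The calls of Ezh2 (adjusted p 0.737 and 0.571) and Mki67 (0.485 and 0.141) were lost without 3-month library 1 and 2 in turn. Of 11 tested stem and radial glia genes none was higher and 1, Notch2, was lower (adjusted p = 0.0317), a call lost without either young library (0.399 and 0.275) and without 21-month library 1 (0.0760). With DESeq2 the calls of Ezh2, Kif11, Mki67 and Notch2 were lost as well, and with at least 2 Igfbpl1 UMIs those of Ezh2, Mki67 and Notch2.

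Transcription factors of newborn neurons were next, of which Sox4, Neurod1, Emx2 and Ebf3 were higher and Bcl11b lower with all libraries. With all libraries 4 of 15 tested were higher and 1 lower, with a list median of 0.47 against -0.08 for all genes. At 3 months alone 9 of 14 were higher and none lower, with a list median of 0.92 against -0.01. Sox4 stood at 50.5 and 26.4 CPM in young members and at 0 in both old sums, against 4.27 and 4.32 CPM in young granule-gated nuclei. The groups did not overlap at 3 months, with a log2 fold change of 2.83 there (SE 0.38, adjusted p = 6.29e-12). Neurod1 stood at 26.5 and 30.2 CPM against 6.86 and 7.68 CPM (1.81, SE 0.36, adjusted p = 1.31e-05 at 3 months). Emx2, a factor of the cortical hem and hippocampal field, stood at 28.9 and 25.5 CPM against 8.08 and 8.78 CPM (1.49, SE 0.36, adjusted p = 0.000563 at 3 months). Nfix and Nfib, nuclear factor I genes of granule neuron development, were called at 3 months only (1.08, SE 0.16, adjusted p = 2.26e-09, and 0.98, SE 0.19, adjusted p = 1.22e-05). With all libraries neither was called (adjusted p = 0.524 and 0.858). Nfib stood at 2159 and 1567 CPM in young members and at 233 and 446 CPM in old ones. The general neuronal factor Neurod2 was at like levels in both (55.4 and 50.0 against 42.1 and 49.6 CPM). Ebf3 was called higher with all libraries on 108 and 74.3 CPM in the old sums, with 0 and 4.71 CPM in the young ones. The fold changes of Sox4 and Neurod1 in the all-library test were 2.57 (adjusted p = 5.72e-09) and 1.53 (adjusted p = 0.00363). Both calls were lost without 3-month library 1 (0.0781 and 0.540) and without library 2 (0.0963 and 0.874). Those of Emx2 were lost in the same way (0.880 and 0.905), that of Ebf3 was lost without 21-month library 1 (0.0543), and that of Bcl11b without any 1 of the libraries (0.0610 to 0.166). With DESeq2 the calls of Sox4, Neurod1, Emx2 and Bcl11b were lost. With no filter on low counts Emx2 and Ebf3 were lost, without doublets Emx2, and against all other nuclei Ebf3 and Bcl11b.

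The plot of levels by library shows these genes beside those of the next groups.

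**Figure D4:**
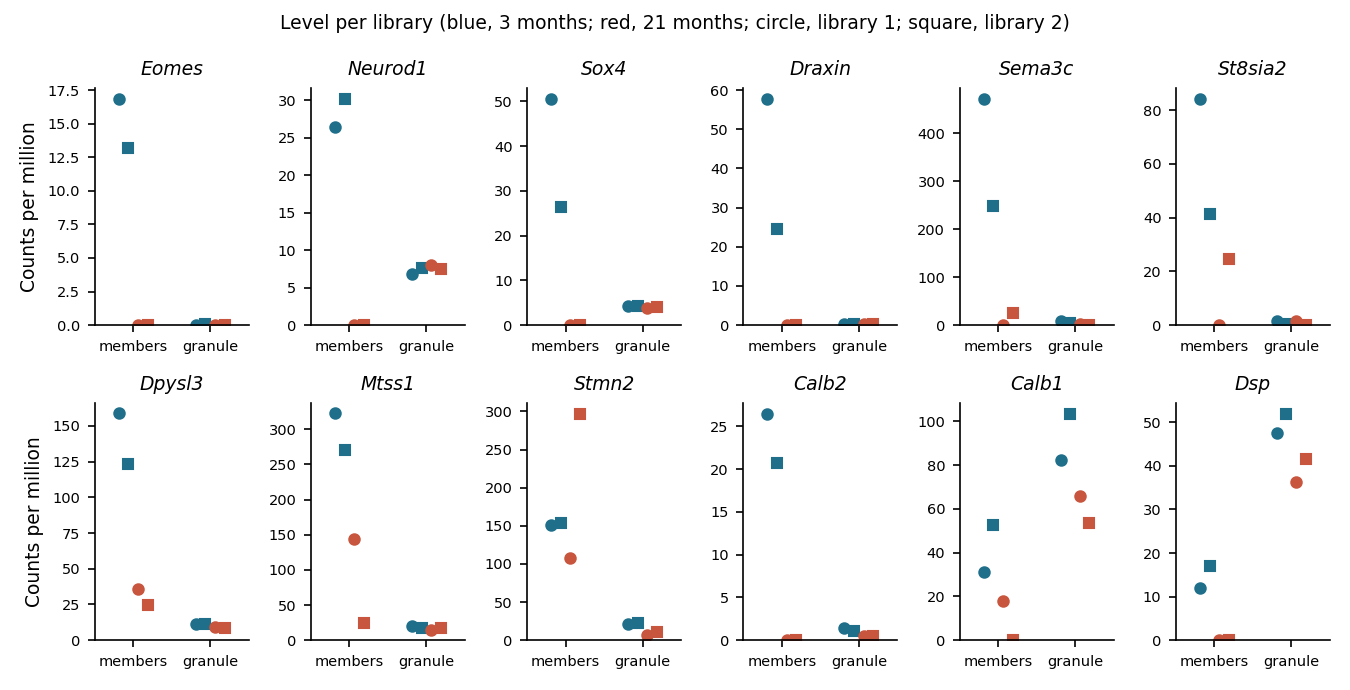
CPM (vertical axes, each from 0) of 12 genes in members and granule-gated nuclei of each hippocampal library (blue, 3 months; red, 21 months; circles, library 1; squares, library 2). Both young member sums lie above all granule-gated sums for the genes from Eomes to Calb2, and below the young granule-gated sums for Calb1 and Dsp.

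Genes of the growing cytoskeleton were higher in 9 cases. Of 17 tested, 9 were higher and 1 lower, with a median of 1.01 (all genes -0.08), and at 3 months alone 9 were higher and none lower (median 1.26 against -0.01). Mtss1, which shapes membrane protrusions, stood at 323 and 271 CPM in young members, 144 and 24.8 CPM in old ones and 14.6 to 19.7 CPM in the 4 granule-gated sums (log2 fold change 3.33, SE 0.31, adjusted p = 1.78e-23). Dpysl3 (CRMP4), a collapsin response mediator of growth cones, stood at 159 and 124 CPM, 35.9 and 24.8 CPM, and 8.76 to 11.3 CPM (3.14, SE 0.31, adjusted p = 2.05e-21). Every member sum lay above every granule-gated sum for both, but the old sums held only 8 and 1 UMIs (Mtss1) and 2 and 1 (Dpysl3). In 21-month library 2, 1 UMI is 24.8 CPM, so any detection there exceeds the granule-gated sums of both genes. At 21 months alone neither was called (adjusted p = 0.633 and 0.920). Stmn2, a microtubule regulator, was 2.98 higher (SE 0.30, adjusted p = 5.44e-21), with 152 and 154 CPM in young members and 108 and 297 CPM in old ones. Dpysl5 (CRMP5) was 2.28 higher (SE 0.30), the growth cone protein gene Gap43 2.09 (SE 0.36), Stmn1 1.76 (SE 0.33), the beta-tubulin genes Tubb2b 1.60 (SE 0.43) and Tubb3 1.44 (SE 0.34), and Nrep 1.01 (SE 0.35). Map1b, the 1 lower gene (-0.88, SE 0.27), was not called at 3 months alone (adjusted p = 0.0874) or without any 1 of the 4 libraries (0.0576 to 0.173). Mtss1, Dpysl3, Dpysl5, Stmn2 and Gap43 were called without any 1 library. The other 4 were lost without either young library, with adjusted p from 0.143 (Stmn1) to 1.00 (Nrep). DESeq2 did not call Tubb2b, Nrep or Map1b. Against all other nuclei Tubb3, Gap43 and Map1b were not called, and with at least 2 Igfbpl1 UMIs Nrep and Map1b were not.

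Among migration and axon guidance genes, 9 of 19 tested were higher and 2 lower (median 0.61), and at 3 months alone 11 of 18 were higher and 2 lower (median 1.06). Sema3c, a secreted guidance cue, stood at 472 and 248 CPM in young members and 9.60 and 3.47 CPM in young granule-gated nuclei. The old members had 0 and 24.8 CPM, and the fold change was 5.34 (SE 0.37, adjusted p = 4.24e-42). St8sia2, which builds the polysialic acid of PSA-NCAM on immature neurons, stood at 84.2 and 41.5 CPM against 1.37 and 0.402 CPM (5.67, SE 0.42, adjusted p = 5.39e-37). Draxin, a secreted ligand of the netrin receptor whose promoter window is printed above, stood at 57.8 and 24.5 CPM against 0.305 and 0.219 CPM (6.27, SE 0.54, adjusted p = 1.25e-27). For these 3 genes both young libraries showed the difference and library 1 had the higher level. Ncam1, the carrier of polysialic acid, stood at 924 and 915 CPM in young members against 626 and 633 CPM, and at 610 and 570 CPM in old members against 687 and 661 CPM. It was not called with all libraries (-0.12, SE 0.27, adjusted p = 0.907) or at 3 months alone (0.37, SE 0.18, adjusted p = 0.181).

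The netrin receptor gene Dcc stood at 4313 and 3244 CPM in young members against 1203 and 1255 CPM (0.98, SE 0.25, adjusted p = 0.00223). The Slit receptor gene Robo1 was 1.80 higher (SE 0.27, adjusted p = 4.64e-09) while Robo2 was not called with all libraries (-0.58, SE 0.26, adjusted p = 0.185) and was lower at 3 months alone (-0.78, SE 0.18, adjusted p = 0.000352). Plxna2, a semaphorin receptor of granule cell axons, stood at 758 and 502 CPM in young members and 53.9 and 198 CPM in old ones, against 130 to 167 CPM in granule-gated nuclei (1.75, SE 0.17, adjusted p = 1.63e-22 at 3 months). L1cam was 1.89 higher (SE 0.38), Cntn2 1.31 (SE 0.42) and the Slit ligand gene Slit2 0.96 (SE 0.30). The lower genes were Epha7 (-1.01, SE 0.26) and Plxna4 (-0.88, SE 0.27), the latter not called at 3 months alone (adjusted p = 0.893) or without either 21-month library (0.189 and 0.345). Epha7 was lost without 3-month library 1 (0.0960) and without 21-month library 1 (0.0558), and Slit2 also without 21-month library 2 (0.0656). Without 3-month library 1 the calls of Dcc, Plxna2, Cntn2, L1cam and Slit2 were lost (adjusted p 0.0585 to 1.00), as they were without library 2 (0.0965 to 0.865). Draxin could then not be tested, and Sema3c, St8sia2 and Robo1 were called without any 1 library. DESeq2 did not call Plxna2, Cntn2, Slit2 or Plxna4. With at least 2 Igfbpl1 UMIs the calls of Robo1, Dcc, Plxna2, Cntn2, Slit2 and Plxna4 were lost, after thinning those of Dcc, Plxna2, Cntn2 and Plxna4, and against all other nuclei those of Robo1, Slit2, Epha7 and Plxna4.

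**Figure D5:**
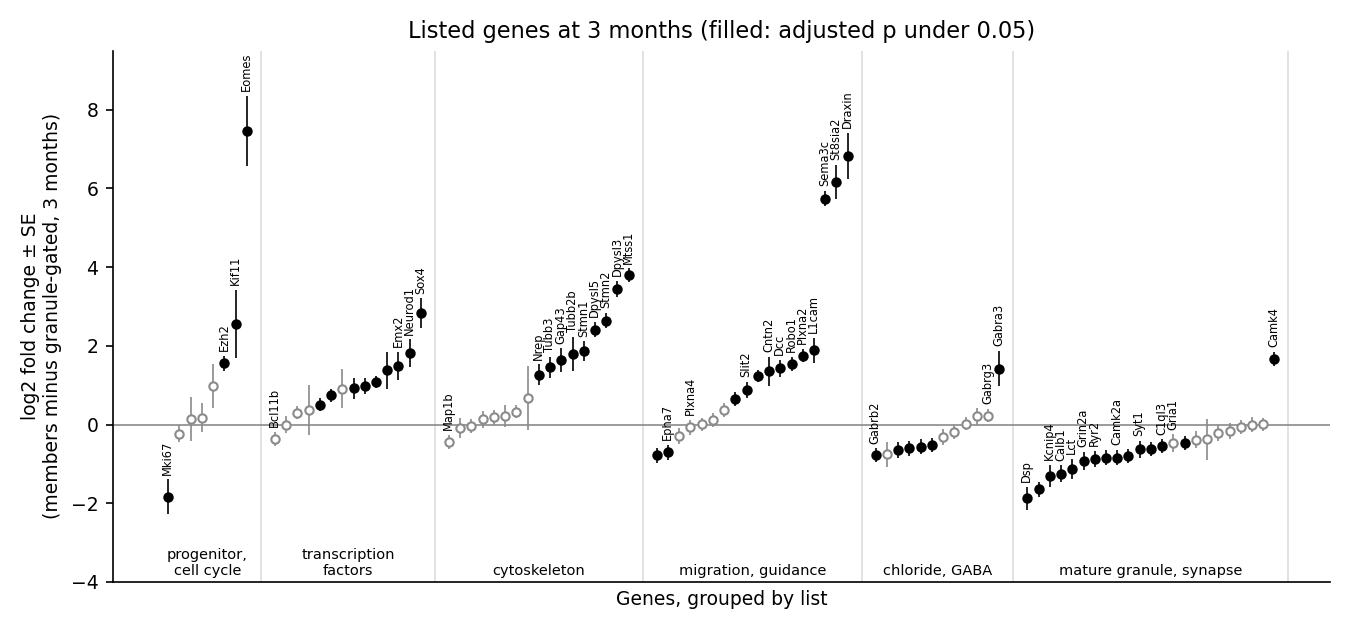
Log2 fold change with its standard error (vertical axis, members minus granule-gated nuclei, 3-month libraries) of each tested gene, grouped by list; filled points have an adjusted p under 0.05, and only some genes carry a name. Sema3c, St8sia2, Draxin and Eomes lie above 5, and the mature granule and synapse genes lie near or below 0 except Camk4 (1.67).

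GABA is depolarising in newborn neurons, which take up chloride through NKCC1 (Slc12a2) before KCC2 (Slc12a5) extrudes it in mature ones. Slc12a2 stood at 69.8 and 49.0 CPM in young members against 38.4 and 47.6 CPM and was not called (0.05, SE 0.31, adjusted p = 0.977). Slc12a5 stood at 50.5 and 67.9 CPM against 78.8 and 86.8 CPM and was lower at 3 months alone (-0.61, SE 0.20, adjusted p = 0.0190), with all libraries not called (adjusted p = 0.665). Of 12 tested genes of this list 2 were higher and 3 lower (median -0.46), and at 3 months alone 1 was higher and 5 lower. The GABA-A subunit gene Gabra3 stood at 19.3 and 15.1 CPM in young members and 144 and 49.5 CPM in old ones, against 0.992 to 5.52 CPM in granule-gated sums, and was higher (2.26, SE 0.42, adjusted p = 4.36e-06). At 3 months alone the log2 fold change of Gabra3 was 1.42 (SE 0.45, adjusted p = 0.0162). Its call was lost after thinning to 3000 UMIs, with at least 2 Igfbpl1 UMIs, with no library block and against all other nuclei (adjusted p 0.118 to 0.721). Gabrb2, a beta subunit of the receptor, was lower, at -0.92 (SE 0.28). Its call was lost without 3-month library 1 (adjusted p = 0.269) and library 2 (0.210). The call of Gabrg3 (0.83 higher) was lost without 3-month library 2 (0.249), without 21-month library 1 (0.224) and without 21-month library 2 (0.190), and DESeq2 called neither gene. Gabrb2 was also lost against all other nuclei, and Gabrg3 at 3 months alone and after thinning.

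Of 23 tested genes of mature granule neurons and synapses, 10 were lower, 12 were not called and 1 was higher (median -0.69), and at 3 months alone 14 were lower and 1 higher (median -0.63). Dsp, a desmosomal gene of mature granule neurons, stood at 12 and 17.0 CPM in young members and 0 in old ones against 36.2 to 52.0 CPM in the granule-gated sums (-2.03, SE 0.40, adjusted p = 3.08e-05). Calb1 stood at 31.3 and 52.8 CPM against 82.3 and 103 CPM in the young sums, and its fold change with all libraries was -1.44 (SE 0.34, adjusted p = 0.000655). The potassium channel partner Kcnip4 was lower, at -1.33 (SE 0.22, adjusted p = 1.06e-07), Lct at -1.35 (SE 0.35), C1ql3 at -1.19 (SE 0.31) and the ryanodine receptor gene Ryr2 at -1.01 (SE 0.25). The NMDA receptor gene Grin2a was lower, at -0.98 (SE 0.24), Camk2a at -0.85 (SE 0.26), Syt1 at -0.84 (SE 0.24) and Gria1 at -0.73 (SE 0.24). Camk4, a nuclear kinase activated by calcium, was the 1 higher gene (176 and 165 against 47.4 and 47.7 CPM, fold change 1.67, SE 0.29, adjusted p = 5.89e-07). Kcnip4 and Camk4 were called without any 1 library, and C1ql3 was lost without 21-month library 1 (adjusted p = 0.0603). The other 8 were lost without either young library (0.0563 to 0.308), and Camk2a, Gria1 and Syt1 also without 21-month library 1 (0.105, 0.285 and 0.130). DESeq2 did not call C1ql3, Lct, Camk2a or Gria1. Against all other nuclei Dsp and Kcnip4 were the only ones of these 11 genes still called, and with at least 2 Igfbpl1 UMIs Calb1 and C1ql3 were lost.

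Markers of other cell types were also read in the members. The 6 oligodendrocyte genes summed to 74.3 to 207 CPM in members and 304 to 514 CPM in granule-gated nuclei, and 3 of 6 were lower (St18, Prr5l and Mobp) and none higher. Mobp was lost without 3-month library 1 (0.181) and library 2 (0.913), as was Flt1 (0.249 and 0.0566). Astrocyte genes summed to 188 and 148 CPM in young members and 155 and 141 CPM in young granule-gated nuclei, and none of 6 was called. Microglial genes summed to 164 and 203 against 150 and 166 CPM, with none of 5 called. Endothelial and mural genes summed to 14.4 and 11.3 CPM in young members and 125 and 18.5 CPM in young granule-gated nuclei, with 2 of 6 lower (Flt1 and Mecom). Of 6 CA pyramidal genes 2 were higher, among them Mpped1 (36.1 and 24.5 against 3.81 and 9.33 CPM). Mpped1 was not called without 3-month library 1 (adjusted p = 0.730) or library 2 (0.0559). DESeq2 did not call Mpped1, Mobp, Flt1 or Mecom, and with at least 2 Igfbpl1 UMIs Mpped1 and Mobp were lost. Of 3 tested Cajal-Retzius genes and 4 tested mossy cell genes, 1 of each list was higher and none lower. Both calls are Calb2, which is on both lists and was too sparse to be tested without either young library. No member met the Cajal-Retzius gate, and which cell type Calb2 marks in the members was not tested. Of the interneuron genes, Adarb2 stood at 684 and 1060 CPM in young members and at 2170 to 2836 CPM in granule-gated nuclei. The level in young members is a mix, as single nuclei ran from 0 to 147 Adarb2 UMIs. Gad1 stood at 40.9 and 55.6 CPM in young members against 18.1 and 20.7 CPM in young granule-gated nuclei. These levels are not like for like, as the gates allow fewer than 6 UMIs of Gad1 and Gad2 in members but fewer than 2 in granule-gated nuclei. In 37 of 47 and 49 of 84 young members there was no UMI of Gad1 or Gad2. How far free RNA from other cells enters these sums was not tested.

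Over all genes, the 12 largest higher calls with a mean of at least 20 CPM in members and 1 direction in all libraries were Col12a1, Fnbp1l, Olfm2, Vat1l, Mtss1, Dchs1, Pcdh15, Gm45323, Hcrtr2, Galntl6, Dpysl3 and Cntnap4. Fnbp1l, which links membrane curvature to actin, stood at 144 and 82.0 CPM in young and 197 and 149 CPM in old members, against 2.31 to 11.1 CPM (3.84, SE 0.31, adjusted p = 1.29e-31). Olfm2, a secreted olfactomedin, stood at 156 and 96.2 CPM and 53.9 and 49.5 CPM, against 5.49 to 6.86 CPM (3.76, SE 0.32, adjusted p = 6.32e-29). Pcdh15, a protocadherin, stood at 1057 and 789 CPM and 449 and 322 CPM, against 38.1 to 73.6 CPM (3.30, SE 0.30, adjusted p = 1.41e-24). Several, Fnbp1l among them, were higher in the old sums of 4 and 2 nuclei than in the young sums. The collagen gene Col12a1 (6.12, SE 0.43) stood at 43.3 and 20.7 CPM in young but 144 and 198 CPM in old members, and was found in 25 of 131 young members. Vat1l (3.45, SE 0.46) stood at 12 and 8.49 CPM in young and 144 and 124 CPM in old members, and Gm45323, a long non-coding RNA, at 16.8 and 50.9 CPM and 126 and 594 CPM. Galntl6 (3.19, SE 0.51) stood at 1512 and 718 CPM in young and 2352 and 2526 CPM in old members, against 51.7 to 292 CPM. Hcrtr2 (3.21), an orexin receptor gene, was too low to be tested at 3 months alone (2.41 and 14.1 CPM). Dchs1 (3.32) and Cntnap4 (3.13), adhesion genes, ranged from 17.0 to 99.0 CPM and from 48.1 to 149 CPM in members. None of the 12 was lost when 1 library was left out. For Col12a1, Vat1l, Dchs1 and Hcrtr2, which passed the filter on low counts only through the members, this is a description. Against all other nuclei in place of granule-gated ones, Vat1l, Hcrtr2, Galntl6 and Cntnap4 were not called, and Galntl6 was also lost with DESeq2's size factors and with no filter on low counts. Adamts18, an extracellular protease gene outside this list and named after its values were seen, stood at 209 and 135 CPM in young members and 18 and 0 CPM in old ones, against 1.07 and 2.01 CPM in young granule-gated nuclei (6.12, SE 0.37, adjusted p = 2.25e-56).

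The 12 largest lower calls were Prr5l, Synpo2, Glis3, Rad51ap2, Emp2, Dsp, Dock10, Stra6, Chst9, Onecut1, Gm48530 and Gm35166. Glis3, a zinc finger factor, stood at 236 and 373 CPM in young and 251 and 0 CPM in old members, against 707 to 807 CPM (-2.11, SE 0.30, adjusted p = 2.23e-10). Dock10, a guanine nucleotide exchange factor, stood at 383 and 552 CPM in young members and 646 and 24.8 CPM in old ones, against 1149 to 1214 CPM (-1.95, SE 0.28, adjusted p = 1.38e-09). Chst9, a sulfotransferase gene, was lower, at -1.85 with all libraries (SE 0.31, adjusted p = 3.09e-07), with 93.9 and 174 against 329 and 343 CPM in the young sums. Stra6, a retinol transporter gene, stood at 7.22 and 18.9 against 46.2 and 45.0 CPM in the young sums, with a fold change of -1.94 with all libraries (SE 0.39). Glis3, Dock10, Chst9 and Prr5l were called without any 1 library. Synpo2, Rad51ap2, Emp2, Dsp and Gm35166 were lost without 3-month library 1 (adjusted p 0.0631 to 0.472) and without library 2 (0.0843 to 0.461). Stra6 was lost without library 1 (0.0960), and Onecut1 and Gm48530 without library 2 (0.156 and 0.206). With DESeq2 the calls of Rad51ap2, Emp2, Onecut1, Gm48530 and Gm35166 were lost.

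At 21 months several genes found in young members were not detected. None of the 6 had a UMI of Eomes, Neurod1, Sox4 or Draxin, although they were deeper (9904 to 24017 UMIs). By the limit of 3 counts, 0 of 6 allows a share of nuclei with a UMI of up to 50.0%, which does not limit the share of cells expressing the gene. All 6 had Dcx, and 2 had Sox11. Prox1 was found in 2 of 6, both in library 1 and with 29 and 34 UMIs of Adarb2, a gene also high in granule-gated nuclei (above) and so not a mark of interneurons alone here. Another 2, also of library 1, had 9 and 4 UMIs of Reln, a Cajal-Retzius and interneuron gene, and no Prox1. The 2 nuclei of library 2 had neither. Sema3c and St8sia2 were each found in 1 of the 6, both in library 2. The old sums also held Stmn2 (6 and 12 UMIs), Gap43 (6 and 5) and Dpysl3 (2 and 1). Such nuclei were found among the young members too, where 14 had no Prox1 and 4 of these had Reln. In 3-month library 2, 1 member had 85 and another 147 UMIs of Adarb2, at 17027 and 92479 UMIs in all. The name of neuroblast or immature neuron may not hold for all 6, nor for all young members.

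Within the members, edgeR's quasi-likelihood test of 21 against 3 months gave no call, 0 of 4322 genes, while 520 had an unadjusted p under 0.05 and DESeq2 gave 122 calls. The libraries of the ages did not overlap for 2024 genes (46.8%). The old libraries held under 20 members each, and the test compares 131 young nuclei with 6 nuclei of mixed content. The genes with the smallest p were Unc13c, Rbms3 and Ano5 upward and Nfia, Ptpro and C130071C03Rik downward, with adjusted p from 0.0597 to 0.0810. Unc13c, a presynaptic priming factor, stood at 16.8 and 42.4 CPM at 3 months and 898 and 594 CPM at 21 months (4.52, SE 0.47, adjusted p = 0.0597). Rbms3, an RNA-binding protein gene, stood at 98.7 and 127 CPM and at 844 and 842 CPM (2.89, SE 0.34, adjusted p = 0.0657), and Ano5 at 4.81 and 7.54 CPM and at 162 and 149 CPM (4.48, SE 0.57). Nfia, a nuclear factor I gene, stood at 1500 and 1243 CPM at 3 months and 251 and 198 CPM at 21 months (-2.59, SE 0.38, adjusted p = 0.0723). Ptpro stood at 765 and 479 CPM and at 71.8 and 24.8 CPM (-3.58, SE 0.57), and C130071C03Rik, a long non-coding RNA, at 549 and 425 CPM and at 53.9 and 74.3 CPM (-2.94, SE 0.47). All 6 were separated between the ages and none passed the adjusted threshold. Leaving out 21-month library 1, which leaves 2 old nuclei, gave 217 calls, and leaving out 21-month library 2 gave 50. Leaving out 3-month library 1 gave 2 calls and leaving out 3-month library 2 gave 43.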

How the data were processed

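The deposited matrix of each of the 8 libraries gave raw UMI counts, not normalized, of 32285 genes. Per the file headers, the libraries were counted with Cell Ranger 6.1.2, apart from 3-month caudate putamen library 2 (7.0.0), which had the highest rate of that region; the submitters' processing notes name Cell Ranger 4.0.0 and mm10. The annotation and the counting of introns are not given in the sources used here. Barcodes with under 500 genes were left out. Members and gates were found by UMI thresholds, and nuclei were not clustered. Doublets were called with Scrublet in scanpy 1.11.5 and retained in the main values. In 3-month library 2 the automatic threshold called 69.7% of nuclei, so the expected share was called instead.

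Counts were summed per library and gate and tested with edgeR 4.0.16 (TMM, filterByExpr, robust quasi-likelihood, Benjamini-Hochberg over all genes tested). DESeq2 1.42.0 was an alternative. Numbers of nuclei were tested with the same tool, with all nuclei as offset, and with exact permutations. CPM are counts per 1000000 of a sum, and standard errors are those of log2 fold changes. The genes that define the gates were described without a test. Alternatives were other gate limits, doublets left out, thinning to 3000 UMIs, other normalizations and filters, other comparison nuclei and leaving out each library. Members, gene lists and tests were chosen with earlier results of these data known. Named genes were the 12 largest calls each way with at least 20 CPM in the higher gate and 1 direction in all libraries used. For age they were the 5 largest calls each way with at least 10 UMIs, or else the 3 smallest p-values each way, and any gene of the lists could be named; some listed genes are not reported here. Symbols were matched to GENCODE vM21 by gene ID (32158 of 32285). Intervals are 95% and cover counting error only.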

Additional observations from a re-analysis of the deposited data

How the results depend on the processing

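The rate of members per 1000 nuclei was higher at 3 months under all 11 alternatives, with a ratio from 7.83 (no limit on Gad1 and Gad2) to 17.1 (at least 2 Igfbpl1 UMIs) where it could be computed; no permutation of 4 or 3 libraries can pass 0.05. The log2 fold change of their number ran from -3.74 to -3.22 without 1 library, and the call was lost without 3-month library 1 (-3.41, adjusted p = 0.0624) and library 2 (-3.43, adjusted p = 0.0631). After thinning it was -7.30, which depends on the prior count because both old libraries were at 0.

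Against granule-gated nuclei, 1123 genes were called, against 407 with DESeq2, 1848 at 3 months alone, 203 at 21 months alone and 290 to 1214 without 1 library. With DESeq2's size factors in edgeR 63.0% of 1122 calls were higher (main 55.4%), with no library block 44.3% of 1248, and against all other nuclei 42.1% of 815. Calls shared with the main ones in the same direction numbered 396 with DESeq2 and 1003 at 3 months alone. The age comparison within members gave 0 calls, 122 with DESeq2, 168 without a filter on low counts, 102 with at least 2 Igfbpl1 UMIs and 2 to 217 without 1 library; the causes were not tested.

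Single genes reversed at 21 months alone, where 6 nuclei were compared and none of these passed: Sox4 (-6.67), Neurod1 (-7.61), Tubb2b (-6.93), Nrep (-8.63), Emx2 (-7.70) and Plxna2 (-0.68). Against all other nuclei Cntn2 (-0.0018), Gabrg3 (-0.064) and Mpped1 (-0.57) reversed. Thinning lowered the shares of young members with Mki67 or Top2a (2.36%), Neurod1 (9.45%), Prox1 (75.6%), Calb1 (9.45%), Eomes (7.87%), Calb2 (7.87%), Dlx genes or Dlx6os1 (0%), Hopx (2.36%), Aqp4 or Gja1 (5.51%) and Mog or Mag (7.87%).

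The labels do not tie replicate numbers to animals. With a replicate block the fold change of the number of members was -3.43 (adjusted p = 0.00145), and 0 genes were called between ages. Deviations of same-numbered libraries correlated at -0.0030 over 5011 genes in members and 0.457 over 19629 genes in all other nuclei. The number of nuclei, 4 and 2, limits all values of members at 21 months.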
